A study of Rattus norvegicus with 8 samples.

Results

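The genes described here are 6 connexins, Gja1, Gja4, Gja5, Gjb1, Gjb2 and Gjc1, taken from the 14217 genes that had a probe set with a single gene symbol on the array. They were chosen by symbol, through the array annotation. In all, 9 of the 31042 probe sets tested carried a member symbol alone, 4 genes had 1 probe set, and Gja1 and Gja5 had several. Where several existed, values of the probe set that was brightest over the 6 single-animal arrays are given first, with the others beside them. Female Sprague-Dawley rats carried a silicone capsule that released dihydrotestosterone (DHT), a potent androgen that aromatase cannot turn into estrogen, for 12 weeks, and control (CTL) rats carried an empty capsule for as long. Ovarian cortex was taken at 15 weeks of age, and RNA of 3 DHT and 3 CTL animals was read on 1 array each. A further array per group held the pooled RNA of the same 3 animals, 8 arrays in all, and served only as a check. No other treatment is named in the labels, and the stage of the estrous cycle at collection is not given in the sources used here.

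Connexins are the channel proteins of gap junctions. Connexin subunits assemble into a hemichannel in the membrane of a cell, which docks with a hemichannel of the neighbouring cell and lets ions, cyclic nucleotides and small metabolites pass. In the ovary, gap junctions couple granulosa cells to each other and to the oocyte, where cyclic GMP that enters from granulosa cells helps to hold the oocyte in meiotic arrest. Connexins of endothelium and smooth muscle couple the cells of vessel walls.

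Values are log2 expression after the authors' GCRMA normalization, which corrects each probe for background by its base composition. Receptors for smell, pheromones and taste, which ovary is not known to use widely, had 41 probe sets, and their 95th percentile on an array was taken as its background level. It lay between 2.62 and 2.71 on all arrays but that of CTL replicate 3, where it was 3.07. CTL replicate 3 stood apart from the other CTL animals in other ways as well. Gapdh has control probe sets near each end of its mRNA, and the log2 excess of the 3' over the 5' signal, which grows as labelled RNA becomes short, was 0.39 and 0.62 on CTL replicates 1 and 2, but 3.49 on CTL replicate 3 and 2.99 to 3.98 on the DHT replicates. The part of RNA length in the differences below was not tested apart from the values given with them. All 8 measured granulosa cell markers, 7 luteal markers and 6 theca cell markers lay above background on at least 1 animal's array, whereas 3 of 6 measured oocyte markers lay at background on all 8 arrays.

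A gene was called when limma gave at least a 2-fold change with p no higher than 0.01 and a false discovery rate no higher than 10%. None of the 6 connexin genes was called between DHT and CTL ovaries, where 1.03% of all probe sets were, 0.351% lower and 0.68% higher in DHT ovaries. On average 5 genes, the undetected Gjb1 among them, were lower and 1, Gja1, was higher in DHT ovaries. The median log2 fold change of the 6, Gjb1 included, was -0.38, against -0.03 for all probe sets. At an unadjusted p under 0.05, 3 of the 6 stood out in limma, Gja5, Gjb2 and Gja1, as did 11.9% of all probe sets. Gja5 and Gjb2 were lower in DHT ovaries without overlap of the groups, which was so for 6.85% of all probe sets, and 17.5% did not overlap in either direction. With 3 animals against 3 the exact permutation test cannot give a p below 0.1, and both genes reached that value. Precision is limited by there being 3 arrays a group. The count of connexins called was 0 under each other way of processing too. Under some of them Gja5, Gjb2 or Gja1 missed only the 2-fold limit, as given at the end. The share of all probe sets called ranged widely between the ways of processing. That share was 3.11% with the pooled arrays as replicate 4 of each group, 0.557% after quantile normalization, 0.95% after median scaling, 2.1% without dim probe sets, 0.197% with a mean-variance trend, 6.04% with array quality weights, 12.1% with the Gapdh excess as a covariate and 0% with a replicate block. When an array was left out, it was 0% for each DHT animal, and 0.583%, 0.296% and 5.23% for CTL replicates 1, 2 and 3 in turn.

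**Figure D1:**
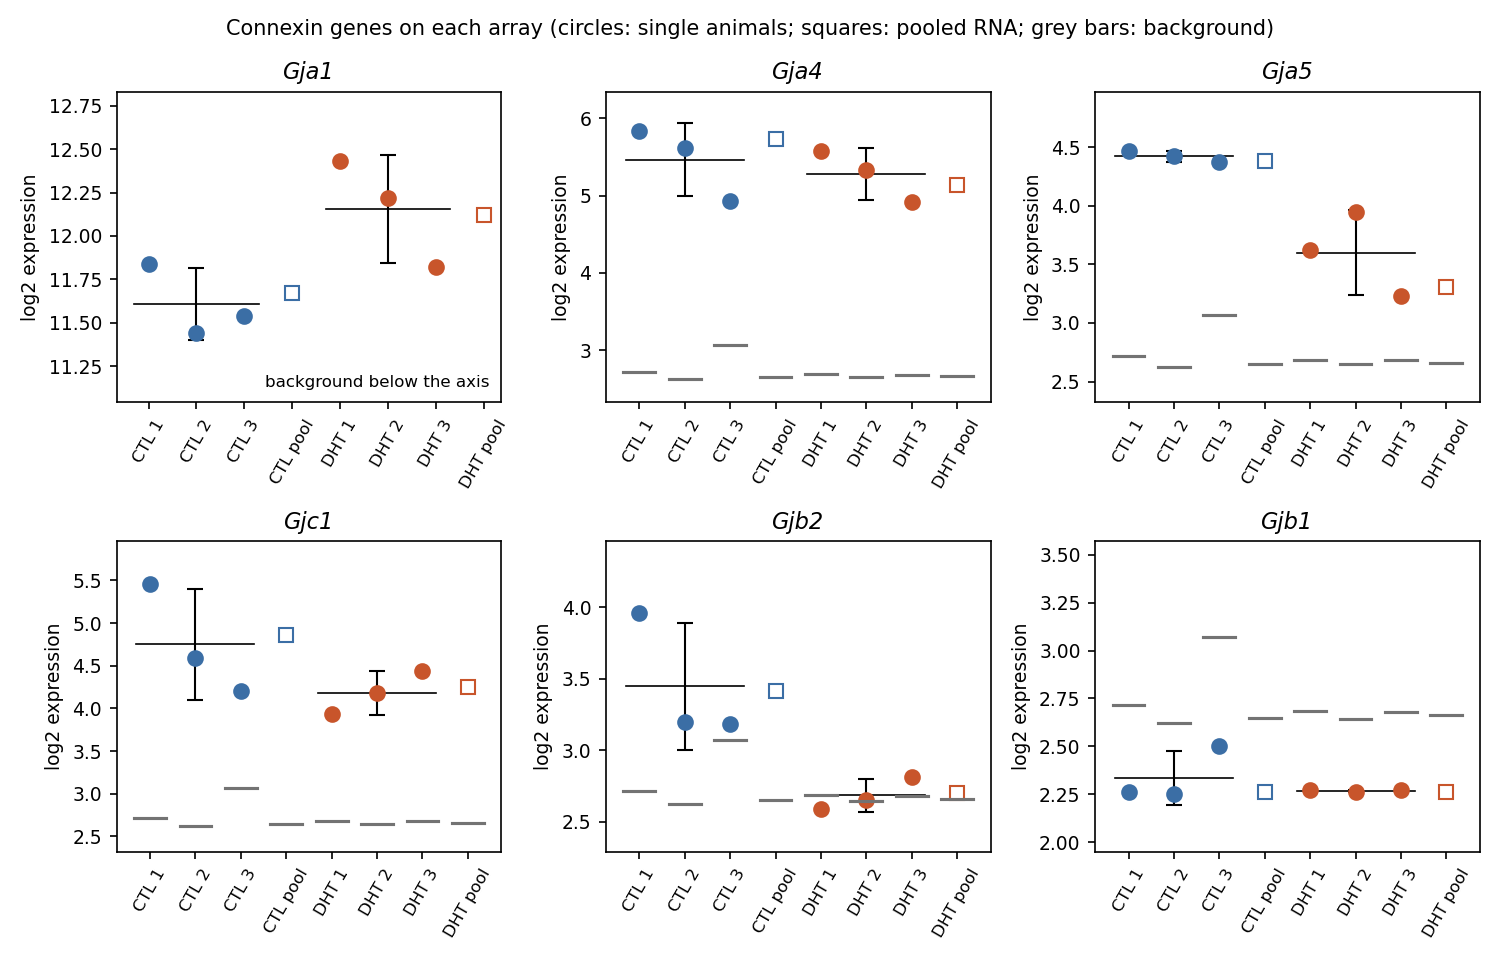
Log2 expression (vertical axes) of the 6 connexin genes on each of the 8 arrays, with filled circles for single animals, open squares for pooled RNA, black lines and bars for the mean and SD of 3 animals, and grey bars for the background level of each array (below the axis for Gja1; the axes differ between genes). Gja5 and Gjb2 do not overlap between the groups, and Gjb1 lies below background on all 8 arrays.

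The promoters of the 3 genes with an unadjusted p under 0.05 are shown to set their sequence features beside their values. RefSeq promoter sequences (GRCr8) were matched for 5 of the 6 members. The 250 bases before the transcript start used by that table are printed 5' to 3' on the gene's strand, with matches in capitals, and positions are counted back from that start. Both strands were searched for each motif, and no matches in these windows overlapped. An AP-1 site was taken as TGANTCA, and a GC box as GGGCGG. The letters of the TATA box searched were TATAAA, and those of an androgen response element half-site were AGAACA. The Gja1 window lies at chr20:36302314-36302563 on the + strand, the Gja5 window at chr2:187290977-187291226 on the + strand and the Gjb2 window at chr15:35381954-35382203 on the - strand. The Gja5 window ends where the annotated gene begins. The last 74 bases of the Gja1 window, the AP-1 match included, lie inside the annotated gene, and all 250 bases of the Gjb2 window do, its transcript start lying 11864 bases past the 5' end of the gene.
Gja1: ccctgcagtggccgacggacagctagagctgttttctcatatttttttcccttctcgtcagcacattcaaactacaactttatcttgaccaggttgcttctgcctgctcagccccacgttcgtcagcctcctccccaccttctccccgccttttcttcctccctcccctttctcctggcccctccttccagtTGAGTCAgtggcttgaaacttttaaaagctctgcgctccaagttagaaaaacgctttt
Gja5: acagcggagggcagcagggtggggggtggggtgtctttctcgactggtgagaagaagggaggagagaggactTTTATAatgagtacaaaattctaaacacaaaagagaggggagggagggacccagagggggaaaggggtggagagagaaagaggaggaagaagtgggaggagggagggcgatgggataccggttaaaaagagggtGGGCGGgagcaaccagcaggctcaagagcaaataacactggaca
Gjb2: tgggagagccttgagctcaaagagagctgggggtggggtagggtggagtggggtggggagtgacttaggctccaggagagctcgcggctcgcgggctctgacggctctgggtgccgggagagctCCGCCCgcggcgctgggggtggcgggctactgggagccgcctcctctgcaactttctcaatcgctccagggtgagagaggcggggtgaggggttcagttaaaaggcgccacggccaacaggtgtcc
The Gja1 window held an AP-1 match at bases 58 to 52 before the start, a motif found in 6.34% of 33469 promoter windows of the same length. The Gja5 window held a GC box at bases 44 to 39 and a TATA box letter match, on the other strand, at bases 178 to 173, motifs found in 30.5% and 12.9% of the windows. The Gjb2 window held a GC box on the other strand, at bases 126 to 121. The letters of the androgen half-site, found in 17.5% of the windows, were in none of these 3 windows. A match is a description of the letters and not a measured site. The G and C share was 51.2% for Gja1, 54.8% for Gja5 and 67.2% for Gjb2, against a median of 51.2% over all windows.

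Gja1 (Cx43) is the main connexin between granulosa cells and is also made by theca, luteal and smooth muscle cells. Its probe set 1372002_at read 12.43, 12.22 and 11.82 on DHT replicates 1 to 3, and 11.84, 11.44 and 11.54 on CTL replicates 1 to 3. The groups overlapped by a single pair, DHT replicate 3 and CTL replicate 1, which differed by 0.02. The mean was 12.16 ± 0.31 (SD, n = 3) in DHT and 11.61 ± 0.21 (SD, n = 3) in CTL ovaries. The groups differed by 0.55 on the log2 scale (standard error 0.20, 95% confidence interval 0.05 to 1.05), or 1.46-fold. The difference did not pass the test (limma adjusted p = 0.368, exact two-sided permutation p = 0.2). The upper bound of the interval lies past a 2-fold change.

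The difference of Gja1 was much the same against either kind of control animal. It was 0.52 against CTL replicates 1 and 2 and 0.62 against CTL replicate 3 alone, a comparison with no test that was chosen after seeing the data. Pooled DHT RNA read 12.12 and pooled CTL RNA 11.67. After quantile normalization the log2 fold change was 0.26. The other Gja1 probe sets, 1369639_at and 1369640_at, lay below background on all 8 arrays, at 2.34 to 2.69 on the single animals, so that a single probe set carries the gene's signal.

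Cell types known to make Gja1 were followed by marker lists, none of whose granulosa, luteal or smooth muscle genes was called. Of 6 theca markers 4 had a positive and 2 a negative log2 fold change. Insl3 was called higher in DHT ovaries (log2 fold change 3.11, limma adjusted p = 0.0575). Higher values without overlap were found for 2 theca markers and lower ones for 1, against 10.6% and 6.85% of all probe sets. The 8 granulosa markers had a mean log2 value of 8.23 to 8.52 on the DHT and 7.53 to 8.11 on the CTL animals, with 4 of 8 higher without overlap, against 10.6% of all probe sets. Cyp19a1, the aromatase of granulosa cells, went the other way, with a log2 fold change of -2.91 (limma adjusted p = 0.404). The 7 stroma markers had a mean of 8.92 to 9.11 on the DHT and 7.05 to 9.10 on the CTL animals. None of the stroma markers was called, and 6 had a positive log2 fold change. Of these 7 markers 3 were higher without overlap, against 10.6% of all probe sets. The 7 luteal markers had 5.56 to 7.02 on the DHT and 8.21 to 9.57 on the CTL animals, all 7 lower on average in DHT ovaries and 5 of them without overlap, against 6.85% of all probe sets. The study reports corpora lutea in most control ovaries, and few or none in the ovaries of DHT rats. From array values of whole tissue, fewer cells of a type and less RNA per cell cannot be told apart. The part of cell composition in the Gja1 values was not tested.

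Gja4 (Cx37) is the connexin of the oocyte side of the junction with granulosa cells, and is also made by endothelium. It read 5.58, 5.33 and 4.92 on DHT replicates 1 to 3, and 5.84, 5.62 and 4.93 on CTL replicates 1 to 3. The groups overlapped throughout, with replicate 3 the lowest of each. The mean was 5.28 ± 0.34 (SD, n = 3) in DHT and 5.46 ± 0.47 (SD, n = 3) in CTL ovaries. The log2 fold change was -0.19 with a 95% confidence interval of -0.94 to 0.57 (limma adjusted p = 0.896). The interval leaves room for differences in both directions. The direction depended on the control animals: the difference was -0.45 against CTL replicates 1 and 2 and 0.35 against CTL replicate 3 alone. It was -0.61 between the arrays of pooled RNA, 5.13 for DHT and 5.73 for CTL.

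The oocyte markers give no clear frame for Gja4. Of 6 measured, Zp2, a protein of the egg coat, was called higher in DHT ovaries (log2 fold change 1.55, limma adjusted p = 0.0870). Zp3, another egg coat protein, had 0.22 and overlapped between the groups, and Gdf9, a growth factor of the oocyte, had -0.09. Zp1, Bmp15 and Kit were the 3 at background. The mean of the list was 3.09 to 3.27 on the DHT and 2.75 to 3.10 on the CTL animals.

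Gja5 (Cx40) is a connexin of arterial endothelium. Its probe set 1368473_at read 3.62, 3.95 and 3.23 on DHT replicates 1 to 3, and 4.47, 4.42 and 4.37 on CTL replicates 1 to 3. The groups did not overlap, with a gap of 0.42 between the highest DHT and the lowest CTL animal. The CTL animals were close together and the DHT animals were not, with means of 4.42 ± 0.05 (SD, n = 3) in CTL and 3.60 ± 0.36 (SD, n = 3) in DHT ovaries. The log2 fold change was -0.82 (standard error 0.19, 95% confidence interval -1.31 to -0.34), or 1.77-fold lower, with an unadjusted p of 0.00711 in limma. It did not pass the test, since its adjusted p of 0.169 exceeds the 10% limit and the change is under 2-fold.

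The lower Gja5 level was seen with each set of controls. It was -0.85 against CTL replicates 1 and 2, -0.77 against CTL replicate 3 alone and -1.07 between the arrays of pooled RNA, which read 3.31 for DHT and 4.38 for CTL. With the Gapdh excess as a covariate it was -0.66 (limma adjusted p = 0.116). The unadjusted limma p of Gja5 rose there from 0.00711 to 0.0735. In that fit 18153 of 31042 probe sets had an unadjusted p under 0.05. Both groups lay above background, by 0.55 to 1.30 in the DHT and 1.30 to 1.80 in the CTL animals. The other probe set, 1387207_at, lay below background on all 8 arrays and gives no fold.

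None of 9 measured endothelial markers was called. Of the 9, 8 had a negative log2 fold change, and 5 were lower without overlap, against 6.85% of all probe sets. Flt1, a VEGF receptor, had -1.37 (adjusted p = 0.115), Kdr, another VEGF receptor, had -1.16 (adjusted p = 0.268), and Pecam1, an adhesion molecule of endothelial junctions, had -1.10 (adjusted p = 0.278). Vwf, a clotting protein of endothelium, had 0.35 (adjusted p = 0.571). The mean of the 9 markers was 4.70 to 5.25 on the DHT and 5.40 to 5.99 on the CTL animals, and all 9 lay above background. Gja5 minus this mean within each array, a quantity chosen after seeing the data, was -1.63, -1.29 and -1.48 on the DHT and -1.36, -1.57 and -1.02 on the CTL animals, which overlapped. Gja4 minus the same mean was 0.33, 0.09 and 0.21 on the DHT and 0.00, -0.37 and -0.46 on the CTL animals, which did not. DHT replicate 2 and CTL replicate 1 were close, and the exact permutation p of 0.1 is the lowest possible here. The arrays of pooled RNA had 0.02 for DHT and -0.22 for CTL.

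**Figure D2:**
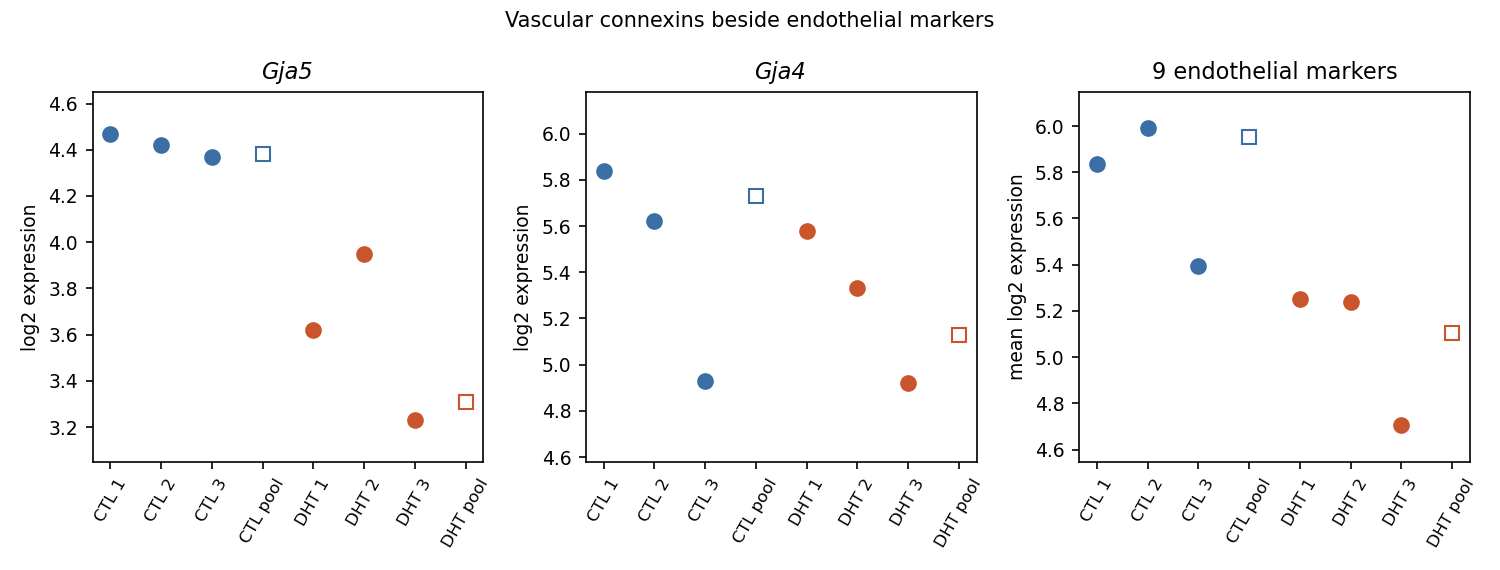
Log2 expression of Gja5 and Gja4 and mean log2 expression of 9 endothelial markers on each array, with filled circles for single animals and open squares for pooled RNA, on vertical axes of equal span. Gja5 and the marker mean are lower on all 3 DHT animals than on any CTL animal, while Gja4 overlaps.

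Gjc1 (Cx45) is a connexin of vascular smooth muscle and of the heart's conduction system. It read 3.93, 4.18 and 4.44 on DHT replicates 1 to 3, and 5.46, 4.59 and 4.20 on CTL replicates 1 to 3. CTL replicate 1 was the highest and CTL replicate 3 lay among the DHT animals. The mean was 4.18 ± 0.26 (SD, n = 3) in DHT and 4.75 ± 0.65 (SD, n = 3) in CTL ovaries. The log2 fold change was -0.57 with a 95% confidence interval of -1.47 to 0.34 (limma adjusted p = 0.695). The difference rested on CTL replicates 1 and 2: it was -0.84 against those animals, -0.01 against CTL replicate 3 alone, -0.21 without CTL replicate 1, and -0.05 with the Gapdh excess as a covariate. Pooled RNA read 4.25 for DHT and 4.86 for CTL. Of 7 smooth muscle markers none was called and none was without overlap, and their mean was 5.47 to 6.24 on the DHT and 4.55 to 6.11 on the CTL animals.

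Gjb2 (Cx26) is a connexin of epithelia and of the inner ear. It read 2.59, 2.65 and 2.81 on DHT replicates 1 to 3, and 3.96, 3.20 and 3.18 on CTL replicates 1 to 3. The groups did not overlap, with a gap of 0.37, and CTL replicate 1 was well above the rest. The mean was 2.68 ± 0.12 (SD, n = 3) in DHT and 3.45 ± 0.45 (SD, n = 3) in CTL ovaries. The log2 fold change was -0.76 (standard error 0.24, 95% confidence interval -1.37 to -0.16) and did not pass the test (limma adjusted p = 0.297). The DHT animals lay close to background, 0.10 below to 0.13 above it, and CTL replicate 3 was 0.11 above its own higher level. CTL replicates 1 and 2 were 1.25 and 0.58 above background. Pooled CTL RNA was 0.76 and pooled DHT RNA 0.04 above it. The difference was -0.90 against CTL replicates 1 and 2, -0.50 against CTL replicate 3 alone, -0.51 without CTL replicate 1 and -0.71 between the arrays of pooled RNA. Of 7 epithelial markers 4 had a positive and 3 a negative log2 fold change, with a mean of 3.65 to 4.56 on the DHT and 3.37 to 3.73 on the CTL animals. None of them was called. Much of the difference in that mean came from Cdh1, with a log2 fold change of 3.37 (limma adjusted p = 0.418). The rest had -0.76 (Msln) to 0.68 (Krt19).

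Gjb1 (Cx32), the connexin of liver, exocrine pancreas and Schwann cells, lay below background on all 8 arrays. It read 2.26 to 2.27 on the DHT animals, 2.25 and 2.26 on CTL replicates 1 and 2, and 2.50 on CTL replicate 3, whose background was also higher. No fold is given for it. Among genes of tissues that make it, 3 of 6 liver markers and 5 of 8 pancreatic acinar markers lay at background on all 8 arrays. Of 4 Schwann cell markers measured, Mbp, S100b and Pmp22 lay above background on all 8 arrays and Sox10 on none. None of these 4 was called, while 2 acinar proteases passed the test as higher in DHT ovaries, Cpa1 by 5.03 (adjusted p = 0.0646) and Ctrb1 by 4.23 (adjusted p = 0.0786) on the log2 scale. Their source was not tested.

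**Figure D3:**
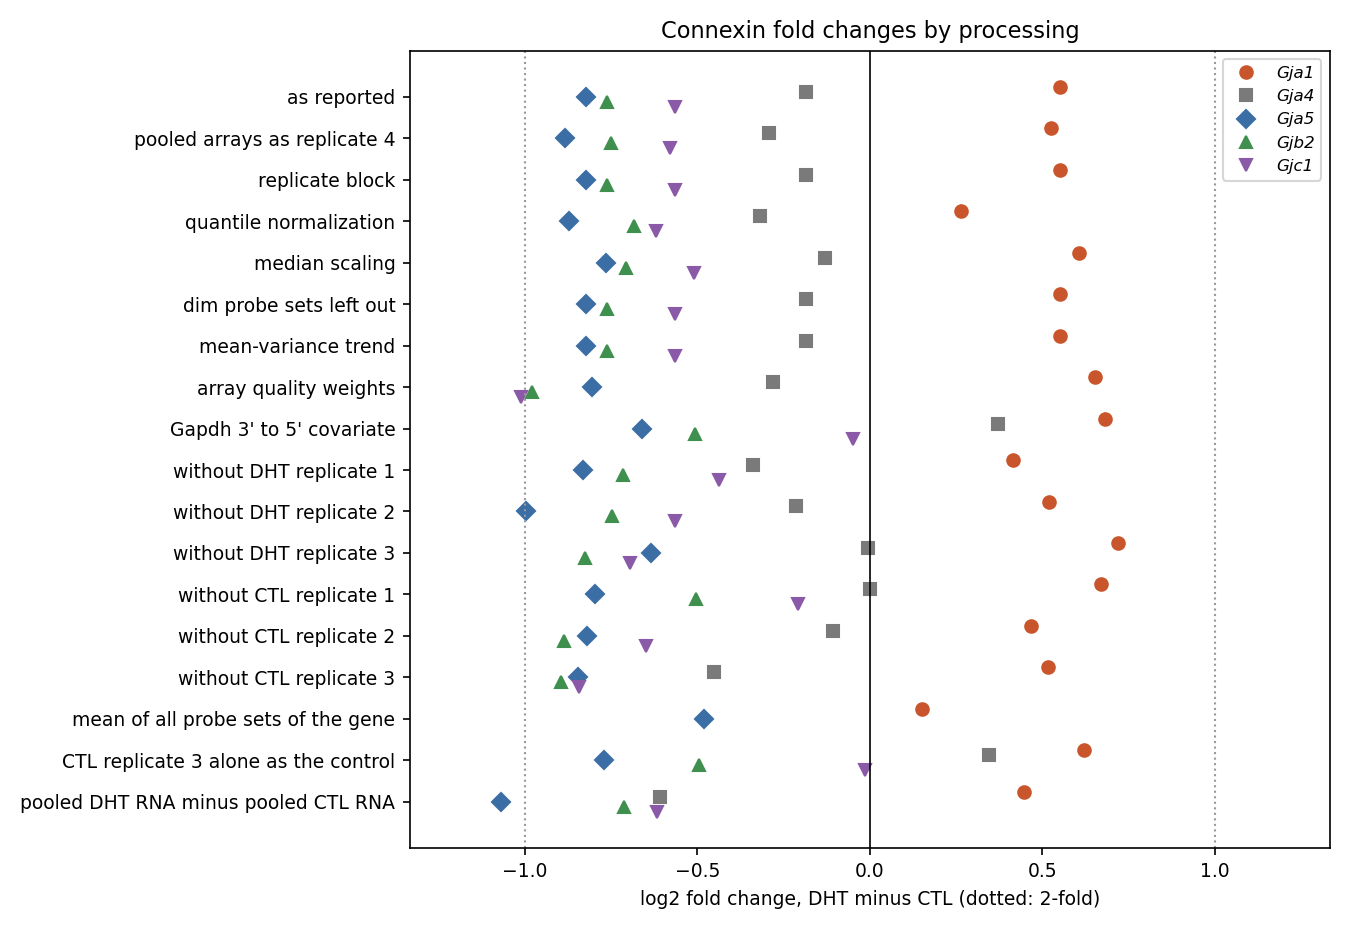
Log2 fold change, DHT minus CTL, of the 5 connexin genes measured above background (horizontal axis, with dotted lines at a 2-fold change) under each way of processing (rows). Gja5, Gjb2 and Gjc1 stay below 0 and Gja1 above 0 in all of them, and Gja4 lies on both sides.

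No other connexin measured here was detected. Of 14 other connexins, 5 were measured by a probe set of their own, Gja3, Gja6, Gjb5, Gjb6 and Gjd2, and all 5 lay at background on all 8 arrays. Of the pannexins, channel proteins with a like fold that do not form gap junctions in most cells, Panx3 lay at background on all 8 arrays. Panx1 read 2.67 to 2.87 on the DHT and 2.62 to 2.94 on the CTL animals, with a log2 fold change of -0.01 (limma adjusted p = 0.962) whose sign turned under several settings.

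Genes whose products bind connexins or remove them from the membrane were for the most part expressed, and none was called. Of 12 listed, 11 were measured, 10 had a positive log2 fold change, and the median was 0.49. An unadjusted p under 0.05 in limma was found for 1 of the 11, against 11.9% of all probe sets. The mean of the 11 was 7.89, 8.06 and 7.74 on the DHT and 8.07, 7.88 and 6.56 on the CTL animals. Only CTL replicate 3 thus lay below all DHT animals. Higher values without overlap were found for 3 of the 11, against 10.6% of all probe sets. Cdh2, the N-cadherin of granulosa cell contacts, read 7.41, 7.86 and 7.47 on the DHT animals and 7.16, 6.88 and 6.56 on the CTL animals (log2 fold change 0.72, limma adjusted p = 0.248). Nedd4, a ubiquitin ligase that acts on Gja1, had 0.84 (adjusted p = 0.519), and 0.41 without CTL replicate 3. Dbn1, an actin-binding protein that anchors Gja1, had 0.37 (adjusted p = 0.482), and 0.21 without CTL replicate 2. Tjp1, the scaffold at the edge of gap junction plaques, read 8.68 to 9.07 on the DHT animals and 9.10, 8.87 and 6.35 on the CTL animals, so that its mean difference of 0.78 rested on CTL replicate 3.

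Kinases that phosphorylate Gja1 also had mostly positive values. Of 13 listed, 10 were measured and 9 had a positive log2 fold change, with a median of 0.41. None was called. An unadjusted p under 0.05 in limma was found for 2 of the 10, against 11.9% of all probe sets. For 3 of the 10 the values were higher without overlap, against 10.6% of all probe sets. The mean of the 10 was 5.74 to 6.08 on the DHT and 5.40 to 5.44 on the CTL animals. Camk2d, a calcium-dependent kinase, read 7.76, 7.74 and 7.95 on the DHT animals and 7.15, 6.93 and 6.48 on the CTL animals, which did not overlap. Its log2 fold change was 0.97, just under the 2-fold limit (adjusted p = 0.122). Csnk1d, a casein kinase that takes part in the assembly of gap junctions, had 0.63 (adjusted p = 0.210) and Akt1 had 0.84 (adjusted p = 0.455), both without overlap. Without CTL replicate 3 the value for Akt1 was 0.45.

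Of 10 genes that make, sense or break down the cyclic nucleotides that pass to the oocyte, 8 were measured and none was called. The log2 fold change was positive for 4 and negative for 4. The mean of the 8 was 4.646 to 4.705 on the DHT and 4.395 to 4.4825 on the CTL animals. In limma 1 of the 8 had an unadjusted p under 0.05, against 11.9% of all probe sets. Gucy1a1, a subunit of the guanylate cyclase that responds to nitric oxide, read 7.73, 7.82 and 7.67 on the DHT animals and 6.77, 6.94 and 5.89 on the CTL animals. Its log2 fold change of 1.21 was the largest in these lists (limma adjusted p = 0.180). It passed all criteria when pooled RNA was added as a replicate (adjusted p = 0.0418), after quantile normalization (adjusted p = 0.0805) and with the Gapdh excess as a covariate (adjusted p = 0.0157). The pooled RNA came from the same animals, and with the covariate 12.1% of all probe sets were called. Nppc, the peptide of granulosa cells that drives cyclic GMP production, had 0.56 (adjusted p = 0.455), or 0.35 without CTL replicate 3, and its receptor Npr2 had 0.57 (adjusted p = 0.473). Pde3a and Pde5a, which break down cyclic nucleotides, lay at background on all 8 arrays.

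**Figure D4:**
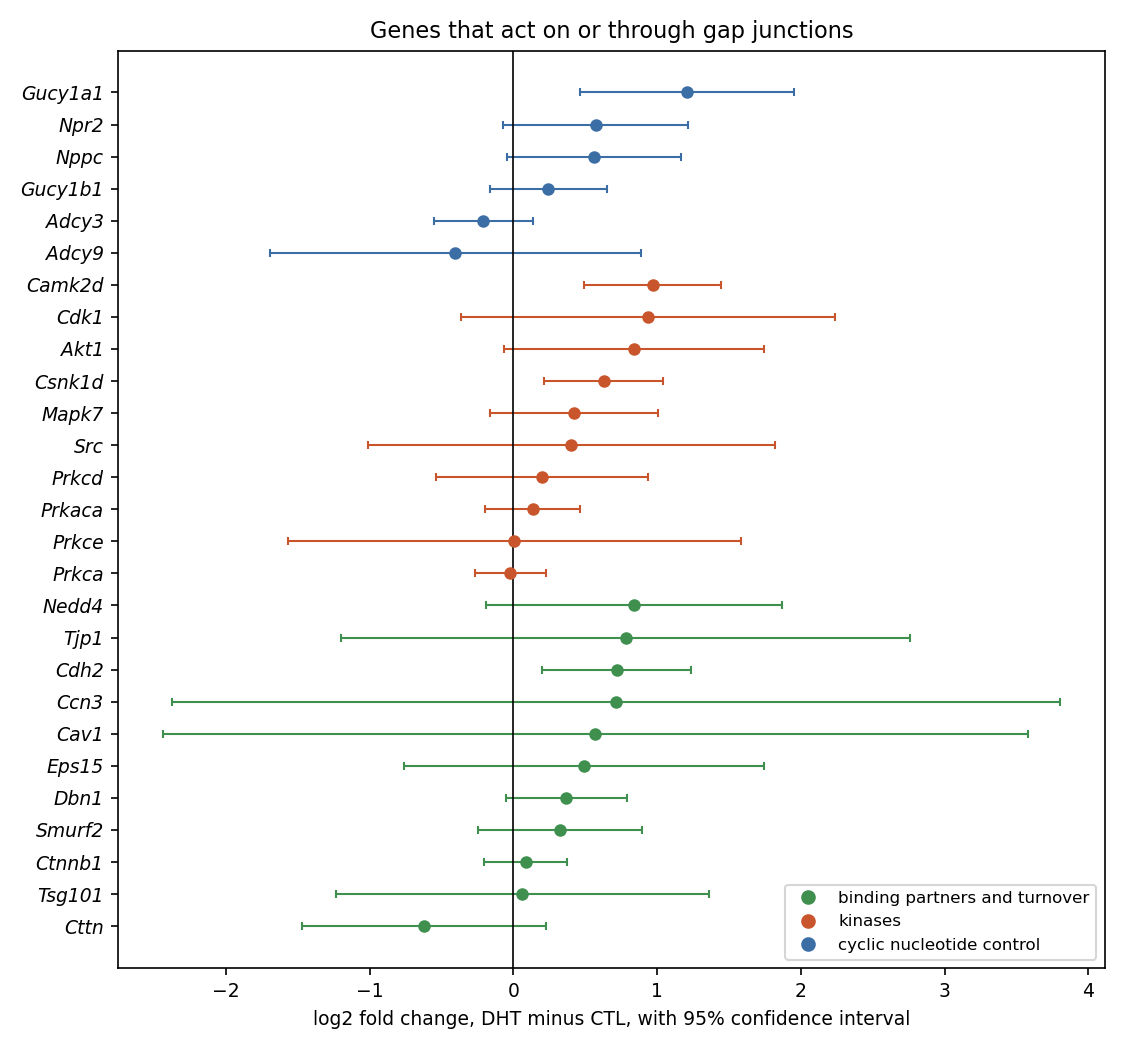
Log2 fold change, DHT minus CTL, with its 95% confidence interval from limma (horizontal axis) for each measured gene above background in the lists of connexin binding partners (green), connexin kinases (orange) and cyclic nucleotide control (blue). Most points lie above 0, Gucy1a1 at 1.21, and none was called. For the binding partners, only CTL replicate 3 had a list mean below that of all DHT animals. The list means of the kinases and of cyclic nucleotide control did not overlap between the groups.

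For the 3 connexins with a range of at least 1 over the 6 animals, the genes nearest in pattern were sought among 11156 genes by the root mean square difference of log2 values centred on their mean over the 6 arrays. For Gja5 they were Tmem45b (0.10), Rtn4ip1 (0.11) and Ehbp1l1 (0.11). For Gjb2 they were RT1-DMb, of the MHC class II pathway (0.07), Rnf138l1 (0.09) and Otulinl (0.11). For Gjc1 they were Cacna2d1, a calcium channel subunit (0.10), Prpf38b (0.11) and Tmem64 (0.15). None of the 9 was called. The likeness is a description over 6 animals.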

How the data were processed

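Ovarian RNA of 3 DHT and 3 CTL rats, and of 1 pool per group, was hybridized to Affymetrix rat genome expression arrays. The deposited log2 values had been background corrected, normalized and summarized per probe set by the authors with GCRMA, and were used as they stand. Gene symbols came from the array annotation and were updated by Entrez gene to GRCr8 names (20764 of 20826 probe sets with 1 symbol matched); 436 probe sets carried several symbols and 9780 none. Control probe sets of the manufacturer (57) did not enter the tests.

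DHT and CTL were compared by moderated linear models (limma 3.58.1, R 4.3.3) over 31042 probe sets, without a filter on low values. Limma, Benjamini-Hochberg adjustment and the criteria for a call were those the study names. The fit used the 6 single-animal arrays, and adjusted p-values are from it. The study reports more transcripts at these criteria, and does not say whether the pooled arrays entered its fit. Among markers not called here, it lists Cyp19a1 and Pecam1 as repressed, and Amh, Inha and Inhbb as activated. Exact permutation tests were two-sided (scipy 1.17.1). No fold is given where all arrays of both groups lay at background. The 6 connexins were all named; of each other list on gap junctions the genes named by rule were those called or, with none called, the 3 with the smallest p, and the other genes in the text were chosen after their values were seen. The members, lists and alternatives were chosen with earlier results of these data known. The fit was tested on simulated data, with 50 changed probe sets of each size. It recovered 64% of log2 changes of 1.5, 92% of 2, 80% of 3 and 96% of 4, with 12 false calls. No change as small as those of the connexins was simulated. CTL replicate 3 alone as control was added after seeing the data. The other alternatives were pooled arrays as replicate 4, a replicate block, quantile normalization, median scaling, removal of dim probe sets, a mean-variance trend, array weights, a Gapdh covariate, a false discovery rate of 5%, the mean over a gene's probe sets, pooled RNA alone, and each array left out.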

Additional observations from a re-analysis of the deposited data

How the results depend on the processing

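No connexin gene was called under any alternative run, and Gja1, Gja5, Gjb2 and Gjc1 kept their direction in all of them. With the pooled arrays as replicate 4, Gja5, Gjb2 and Gja1 passed the p and false discovery rate limits but not the 2-fold limit. Their log2 fold changes were -0.88, -0.75 and 0.52, with limma adjusted p of 0.0208, 0.0552 and 0.0903. With array quality weights Gjb2 also missed only the fold limit (log2 fold change -0.98, limma adjusted p = 0.0474). The pooled RNA came from the same animals. The adjusted p of Gja5 was 0.0208 to 0.469 and its log2 fold change -1.07 to -0.48. Gja1 had 0.15 as the mean of its 3 probe sets, 2 of them at background. Gja4, -0.19 in the report, turned to 0.37 with the Gapdh covariate and to 0.35 against CTL replicate 3 alone, and leaving out single arrays gave -0.45 to 0.0005. Gjc1 had -0.01 against CTL replicate 3 alone. Leaving out single arrays gave 0.42 to 0.72 for Gja1, -0.996 to -0.64 for Gja5, -0.90 to -0.51 for Gjb2 and -0.84 to -0.21 for Gjc1.

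Over all probe sets 320 were called. The count was 966 with the pooled arrays as replicate 4, 173 after quantile normalization (86 lower and 87 higher, against 109 and 211), 61 with a mean-variance trend, 1874 with array quality weights, 3746 with the Gapdh covariate and 29 at a false discovery rate of 5% without a fold limit. Leaving out single arrays gave 0 to 1622: 0 for each DHT animal (2529 to 2623 at an unadjusted p under 0.05 in limma), 181 and 92 for CTL animals 1 and 2, and 1622 for CTL animal 3. In the gap junction lists 0 genes were called, but 1 with the pooled arrays, 1 after quantile normalization (Gucy1a1 in both), 1 with array weights (Src), 11 with the Gapdh covariate (Cdh2, Nedd4, Camk2d, Akt1 and Gucy1a1 among them), and 0 to 1 when single arrays were left out (Src without CTL replicate 3). Panx1 turned to 0.034 after quantile normalization, 0.043 after median scaling, 0.015 with array weights, 0.019 with the covariate and -0.084 to 0.076 when single arrays were left out. The causes were not tested.

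With the replicate number as a block, limma called 0 probe sets, with 3817 at an unadjusted p under 0.05, and no connexin gene was called. Deviations of same-numbered animals correlated by -0.07, 0.44 and 0.34, so the numbers are not taken to pair the animals.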
